A study of Mus musculus with 3 samples.

Results

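The 9 genes described here, Fpr1, Fpr2, Ptafr, Ltb4r1, S1pr4, Hcar2, Gpr84, Cxcr4 and Ccrl2, encode receptors for chemoattractants and metabolites. They were taken by symbol from the 28692 genes of the count matrices, and all 9 were found. Transcripts were counted as unique molecular identifiers (UMIs, each standing for a captured RNA molecule) in single cells of mammary tumours. Cells of the 2208L tumour cell line had been injected into the mammary gland of mice, the tumours were harvested after 4 weeks at a diameter of 0.7 to 1 cm, and viable CD45-positive, DAPI-negative cells were sorted, so that leukocytes were enriched. All 3 libraries, here replicates 1 to 3, carry the same labels, with no untreated or control group and no mouse strain, age or genotype. Nothing says that they came from separate animals, so the p-values below measure only the spread between these libraries, which may be technical. The cell type label reads tumour, whereas the sort was for a leukocyte antigen. Capture at the 5′ end and at the 3′ end are both named, so which one applies is not known.

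Neutrophils find their targets through G-protein-coupled receptors that signal mainly through Gi proteins to migration, granule release and the oxidative burst. Fpr1 and Fpr2 are formyl peptide receptors, which sense N-formylated peptides from bacteria and mitochondria, and Fpr2 also binds annexin A1 and serum amyloid A. Ptafr is the receptor of platelet-activating factor, Ltb4r1 (BLT1) the high-affinity receptor of leukotriene B4, and S1pr4 a receptor of sphingosine 1-phosphate found mainly on leukocytes. Hcar2 responds to beta-hydroxybutyrate and nicotinic acid, and Gpr84 to medium-chain fatty acids. Cxcr4, the receptor of Cxcl12, retains neutrophils in the bone marrow and rises on aged neutrophils. Ccrl2 is an atypical receptor that binds chemerin without classical signalling and is induced on activated myeloid cells.

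The genes lie on 8 chromosomes of the mouse genome. In the GENCODE annotation of GRCm38, which is the mm10 build that the submitters name, Fpr1 lies on chromosome 17, 17876471 to 17883940, minus strand, and Fpr2 on chromosome 17, 17887824 to 17893952, plus strand. Their start sites are 3884 base pairs apart and point away from each other. Exons of Fpr2 overlap those of Fpr3 on the same strand, and Fpr3 has its own row in the matrices, so the counts of Fpr2 are uncertain to that extent. The other genes are Ptafr (chromosome 4, 132564067 to 132582683, plus strand), Ltb4r1 (chromosome 14, 55765962 to 55768494, plus strand), S1pr4 (chromosome 10, 81497747 to 81500132, minus strand), Hcar2 (chromosome 5, 123863570 to 123865499, minus strand), Gpr84 (chromosome 15, 103308235 to 103310612, minus strand), Cxcr4 (chromosome 1, 128588199 to 128592293, minus strand) and Ccrl2 (chromosome 9, 111054486 to 111057519, minus strand). Gpr84 overlaps an exon of a predicted gene on the opposite strand that has no row in the matrices.

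RefSeq's promoter table for GRCm38.p6 held an entry for 8 of the 9 genes. Fpr1 and Fpr2 are divergent neighbours, and both were among the 6 receptors called lower in a neutrophil state below. The others of these lie on other chromosomes, and shared control was not tested. The 250 bases before the RefSeq start are shown for Fpr1 (chr17:17883940-17884189, minus strand) and Fpr2 (chr17:17887574-17887823, plus strand), with capitals marking matches to TTNNGNAA, the form of a C/EBP site, read on both strands. They are shown also for Ccrl2 (chr9:111057519-111057768, minus strand), the gene with the most UMIs, with capitals marking GGGNNTTCC, the form of an NF-kB site.
Fpr1: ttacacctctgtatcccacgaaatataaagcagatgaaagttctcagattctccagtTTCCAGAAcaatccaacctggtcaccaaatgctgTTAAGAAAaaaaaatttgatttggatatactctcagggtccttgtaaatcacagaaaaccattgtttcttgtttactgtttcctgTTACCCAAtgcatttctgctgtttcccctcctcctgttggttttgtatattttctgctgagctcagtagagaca
Fpr2: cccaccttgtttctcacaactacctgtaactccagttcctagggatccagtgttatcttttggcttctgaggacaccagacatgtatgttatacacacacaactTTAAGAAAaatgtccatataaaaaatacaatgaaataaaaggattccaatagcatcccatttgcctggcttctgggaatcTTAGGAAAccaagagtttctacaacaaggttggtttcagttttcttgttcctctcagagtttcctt
Ccrl2: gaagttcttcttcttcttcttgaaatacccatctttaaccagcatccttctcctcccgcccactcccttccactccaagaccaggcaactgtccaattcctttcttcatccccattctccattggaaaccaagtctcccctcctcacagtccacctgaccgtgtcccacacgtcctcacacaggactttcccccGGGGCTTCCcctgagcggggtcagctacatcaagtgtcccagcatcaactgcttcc
Fpr1 had 3 matches to the C/EBP form, the first bases of which lay 193, 159 and 74 bases before the start, and Fpr2 had 2, at 146 and 66 bases. A match occurred in 36.8% of all 32851 RefSeq promoter windows of this length, and in a window of 4 of the 8 genes. The NF-kB form was met once in Ccrl2, 56 bases before the start, in none of the other 7 genes' windows and in 4.98% of all windows. GAGGAA, the core of a PU.1 site, was searched on both strands as well and was met in 3 of the 8 genes, Fpr2, Ptafr and Ltb4r1, and in 23.3% of all windows. These are matches of letters and not measured binding.

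The libraries held 4424, 6036 and 3876 barcodes with 9846404, 15259236 and 9445914 UMIs. After filtering, 14226 of 14336 barcodes were kept, with median depths of 1239, 1549 and 1318 UMIs. Pairs of libraries shared 25 to 37 barcode sequences. Clusters made without the 9 genes were named by marker genes, and 6076 barcodes (1671, 2137 and 2268) were neutrophil-like. They made up 44.3% ± 12.9 (SD, n = 3) of the kept barcodes and were shallow, with a median of 902 UMIs against 4263 in monocyte/macrophage-like and 1424.5 in T-cell-like barcodes. The 11 neutrophil markers, S100a8, S100a9 and Csf3r among them, summed to 65757 to 74230 UMIs per 1000000 UMIs (CPM) per library in this class and to 440 to 2647 CPM in the other 6 classes tested. A T-cell-like cluster of 118 barcodes that also held neutrophil transcripts and had a median doublet score of 0.229 was left unnamed, a choice made after the data were seen. A further cluster of 109 barcodes, led by Adm, Gbe1 and Hspa1a, did not reach 3 markers of any class. It was unnamed too and is not part of the neutrophil-like class. Plasmacytoid-like barcodes came mostly from replicate 2 (161 of 210), where macrophage markers also reached 6368 CPM against 661 and 525 CPM in the others. In summed cells, fewer expressing cells and less RNA per cell cannot be told apart.

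Of the 9 receptors, 8 had their highest mean level in the neutrophil-like class, and S1pr4 did not. Levels are given as CPM of the UMIs of a class in a library, as mean ± SD over the 3 libraries, and compared within a gene. Classes were compared on UMIs summed per library with edgeR's quasi-likelihood test with library as a block. A gene was called at an adjusted p under 0.05 over 9550 genes. The markers that named the class were themselves genes of these cells, but none of the 9 receptors took part in the clustering.

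Both formyl peptide receptors were highest in the neutrophil-like class. Fpr1 stood at 62.9, 73.1 and 56.2 CPM in replicates 1, 2 and 3 of the neutrophil-like class. In monocyte/macrophage-like barcodes the same libraries held 5.41, 6.20 and 10.4 CPM, so that the ranges lay far apart. The log2 difference was 3.38 ± 0.22 (SE) (edgeR adjusted p = 5.83e-14). No UMI of Fpr1 was counted in NK-like barcodes, so that the neutrophil-like level was at least 18.8-fold higher, taking 3 UMIs in all NK-like barcodes as the limit of detection. A single UMI in the epithelial-like class gave a ratio of 171 (95% interval 30.5 to 6757, counting error only). Fpr2 reached 153, 189 and 129.5 CPM in neutrophil-like and 20.9, 28.9 and 21.1 CPM in monocyte/macrophage-like barcodes. It differed by 2.93 ± 0.15 (SE) on the log2 scale (edgeR adjusted p = 6.18e-17), and no library of one class reached the other. In plasmacytoid-like barcodes Fpr2 was uneven, at 0, 1.62 and 27.2 CPM.

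The 3 receptors of lipid mediators were distributed differently from each other. Ptafr, whose ligand is made by Lpcat2 in activated leukocytes, had 451, 405 and 365 CPM in the neutrophil-like class and 61.5, 63.7 and 59.6 CPM in the monocyte/macrophage-like class, the next in order (log2 difference 2.92 ± 0.10 (SE), edgeR adjusted p = 3.30e-21). Its level in T-cell-like barcodes was 12.1 ± 2.77 CPM. Ltb4r1 was shared with T-cell-like barcodes. It stood at 63.6, 113 and 96.6 CPM in neutrophil-like and at 44.04, 32.6 and 67.0 CPM in T-cell-like barcodes, and replicate 1 of the first lay below replicate 3 of the second. Within each library the neutrophil-like level was the higher, and the difference was called at 1.17 ± 0.18 (SE) (edgeR adjusted p = 7.50e-07), the smallest of the calls of the 8 receptors against T-cell-like barcodes. Ltb4r1 stood at only 7.41 ± 2.85 CPM in NK-like barcodes, and was also present in dendritic-cell-like (26.6 ± 9.80 CPM) and monocyte/macrophage-like barcodes (19.5 ± 3.53 CPM). Within the latter class, monocyte-like barcodes held 46.8 ± 12.3 CPM and macrophage-like barcodes 12.7 ± 2.76 CPM, with no overlap and no test.

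S1pr4 was a transcript of lymphoid and plasmacytoid cells in these tumours. It stood at 64.8, 70.9 and 99.8 CPM in T-cell-like, at 82.6, 63.1 and 81.5 CPM in plasmacytoid-like and at 16.0, 30.2 and 52.8 CPM in NK-like barcodes. The first 2 classes overlapped, and every library of them lay above every NK-like value. In neutrophil-like barcodes it reached only 1.97, 4.36 and 4.12 CPM, from 23 UMIs in 6076 barcodes, which were 3.74% of all its UMIs. It was lower than in T-cell-like barcodes by a log2 difference of -4.26 ± 0.25 (SE) (edgeR adjusted p = 4.59e-16) and than in plasmacytoid-like barcodes by -3.88 ± 0.37 (SE) (edgeR adjusted p = 1.71e-10). The log2 difference from NK-like barcodes was -2.96 ± 0.44 (SE) (edgeR adjusted p = 9.35e-07). Against the monocyte/macrophage-like class (3.49 ± 1.37 CPM) it was not called, at 0.19 ± 0.37 (SE) (edgeR adjusted p = 0.669). A call as higher than in epithelial-like barcodes (log2 1.504 ± 0.68 (SE), edgeR adjusted p = 0.0478) was lost in 9 of 13 alternatives. These included leaving out replicate 1 (edgeR adjusted p = 0.0623) or replicate 3 (edgeR adjusted p = 0.324) and a fit without the library block (edgeR adjusted p = 0.0657).

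Both metabolite receptors were concentrated in the neutrophil-like class. Hcar2 had 1355, 975 and 995 CPM in neutrophil-like barcodes, where 85.9% of its UMIs lay. Its next level, in monocyte/macrophage-like barcodes, was 52.5, 40.4 and 41.8 CPM, and the ratio of the 2 means, 24.7, was the highest between a first and a second class among the 9 genes. The log2 difference was 4.82 ± 0.19 (SE) (edgeR adjusted p = 1.05e-19). Gpr84 stood at 106, 148 and 135 CPM in neutrophil-like and at 11.3, 13.3 and 15.1 CPM in monocyte/macrophage-like barcodes, with every library of the first above every library of the second. Its log2 difference was 3.50 ± 0.16 (SE) (edgeR adjusted p = 1.27e-18). Below these classes Hcar2 lay between 16.3 ± 15.4 CPM and 32.9 ± 7.92 CPM, with neighbouring classes overlapping.

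Of the chemokine receptor pair, Cxcr4 was spread over the classes and Ccrl2 was concentrated in one. Cxcr4 was found in every class, at 404, 482 and 441 CPM in neutrophil-like, 203, 145 and 123 CPM in NK-like, 173, 93.4 and 121 CPM in T-cell-like and 99.1, 72.8 and 136 CPM in plasmacytoid-like barcodes. The neutrophil-like libraries lay above all others, while the other 3 of these classes overlapped. Against NK-like barcodes the log2 difference was 1.75 ± 0.21 (SE) (edgeR adjusted p = 1.89e-08), and against monocyte/macrophage-like barcodes it was 2.67 ± 0.17 (SE) (edgeR adjusted p = 4.13e-15). Ccrl2 supplied 27309 of the UMIs of the 9 genes in all kept barcodes, of which 74.9% were in the neutrophil-like class. Its libraries held 3639, 3311 and 3018 CPM there, 318, 339 and 254 CPM in monocyte/macrophage-like and 247, 234 and 172 CPM in dendritic-cell-like barcodes, and no 2 of these classes overlapped. The log2 difference from the monocyte/macrophage-like class was 3.66 ± 0.21 (SE) (edgeR adjusted p = 2.94e-16).

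**Figure D1:**
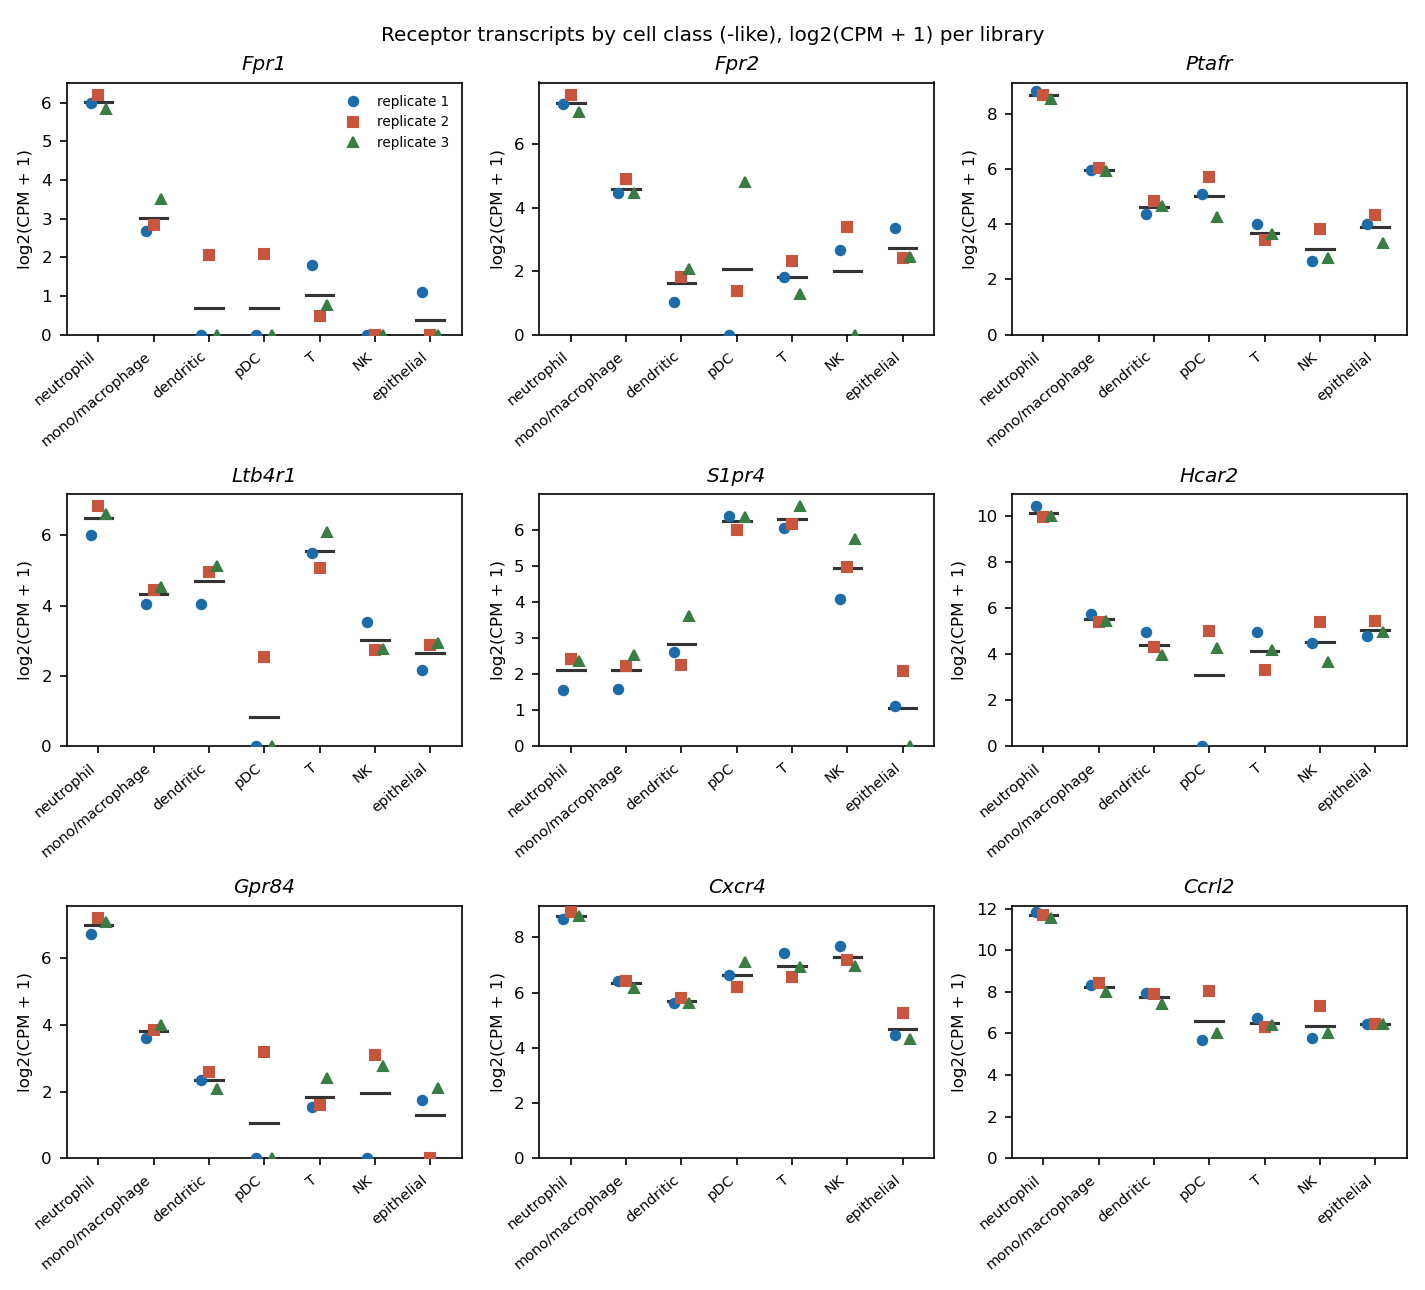
Level of each receptor as log2(CPM + 1), one panel per gene, in the 7 cell classes on the horizontal axis; the 3 point shapes are the 3 libraries and the horizontal lines their means. The neutrophil-like class is highest in 8 panels, Ltb4r1 overlaps with the T-cell-like class, and S1pr4 is highest in T-cell-like (mean 78.5 CPM) and plasmacytoid-like barcodes.

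In counts of calls, 8 of the 9 receptors were higher in neutrophil-like than in monocyte/macrophage-like barcodes and 0 lower, where 29.5% of all genes tested were called higher and 36.5% lower. Against dendritic-cell-like barcodes 8 were higher and 0 lower (all genes 27.8% and 31%). Against T-cell-like barcodes 8 were higher and S1pr4 was lower, where 31.9% of all genes were higher and 32.8% lower. The same 8 were called higher and S1pr4 lower against NK-like (24.3% and 22.6% of all genes) and plasmacytoid-like barcodes (23.3% and 22.2%). Against the epithelial-like class 9 were called higher and 0 lower (33.9% and 37.2% of all genes). The genes were selected as receptors of neutrophils, so these counts describe the set and do not test it. With library totals in place of TMM scaling, the median of all genes over these 6 contrasts went from a range of -0.14 to 0.0596 to one of -0.39 to -0.14 on the log2 scale, and no call of the 8 receptors was lost. Against plasmacytoid-like barcodes, 9 receptors were also called without replicate 2. Under library totals, higher calls made up 34.7% of all calls in that comparison, in place of 51.1%.

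Low levels in the other classes were read against free RNA, which droplets take up from lysed cells. The summed neutrophil markers in the other classes stood at 1.17% to 2.91% of their neutrophil-like level. In T-cell-like barcodes, where this value was 1.54%, Hcar2 was at 1.67%, Fpr2 at 1.69%, Fpr1 at 1.89%, Gpr84 at 2.10%, Ccrl2 at 2.69% and Ptafr at 2.96% of their neutrophil-like levels. Those of Cxcr4 (29.2%) and Ltb4r1 (52.6%) lay well above it. In monocyte/macrophage-like barcodes the markers stood at 2.91%, and all 8 receptors other than S1pr4 stood above that, from 4.05% for Hcar2 to 21.5% for Ltb4r1. Thinned to 600 UMIs per barcode, Ccrl2 was detected in 66.3% of neutrophil-like and 3.86% of T-cell-like barcodes. For Hcar2 these shares were 30.2% and 0.779%, for Cxcr4 19.9% and 7.27%, and for Ptafr 18.5% and 0.391%. They were 8.42% and 0.0785% for Fpr2, 5.94% and 0.0785% for Gpr84, and 5.46% and 2.60% for Ltb4r1. Fpr1 was detected in 3.19% of neutrophil-like barcodes, and S1pr4 in 0.0957% against 5.42% of T-cell-like barcodes. The thinning left out 761 neutrophil-like barcodes under 600 UMIs. At this depth 23.1%, 20.6% and 17.2% of neutrophil-like barcodes in replicates 1, 2 and 3 held UMIs of 3 or more of the 9 genes, and 14.8%, 15.9% and 20.5% held none. Ccrl2 alone was detected in 66.3%, and whether receptors met in a barcode more often than independent detection would give was not tested.

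Over the 21 sums of 7 classes and 3 libraries, each receptor had neighbours with a similar pattern, by Pearson's r of log2(CPM + 10) among 4831 genes with a mean of at least 20 CPM, which did not include Fpr1. Fpr1 was closest to Gpr84 (r = 0.979), Clec4d and Trem3. Among those genes the nearest to Gpr84 were Ambp (r = 0.972), Chil1 and Ccrl2 (r = 0.962). Hcar2 was closest to Upp1 (r = 0.978), Il1f9 and G0s2. The nearest genes to Fpr2 were Wfdc21 (r = 0.957), Slc2a1 and Lrg1, to Ptafr Gabarap (r = 0.960), Clec4d and Msrb1, and to Ccrl2 Pilrb1 (r = 0.971), Usf2 and Tnfaip2. The looser patterns of Ltb4r1 and Cxcr4 had nearest neighbours at r = 0.901 (Ifit1, then Slfn1 and Msn) and r = 0.910 (Anxa11, then Spata13 and Tnip1). S1pr4 was closest to Sla2 (r = 0.945), Ptprcap and Atp2b4. These sums share libraries and differ in depth, and the values are descriptions.

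Other chemoattractant, lipid and metabolite receptors did not follow one direction. Of 45 listed, 31 passed the filter on low counts. Against monocyte/macrophage-like barcodes 10 were higher and 13 lower in the neutrophil-like class, where 29.5% of all genes were higher and 36.5% lower. The median log2 was -0.91, against -0.14 over all genes. The receptors furthest down, all called lower by edgeR, were Cx3cr1, the fractalkine receptor (6.82 against 423 CPM, log2 -5.90 ± 0.35), the chemerin receptor Cmklr1 (log2 -5.77 ± 0.36), the monocyte chemokine receptor Ccr2 (11.9 against 475 CPM, log2 -5.20 ± 0.28) and Gpr34 (log2 -4.94 ± 0.40). Ccrl2, which also binds chemerin, differed in the other direction, though monocyte/macrophage-like barcodes were its second class at 304 CPM. Against T-cell-like barcodes 14 were higher and 13 lower, where 31.9% of all genes were higher and 32.8% lower (median log2 -1.06, against -0.0134 over all genes). The largest calls were for the C5a receptor C5ar1 (424 against 8.20 CPM, log2 5.83 ± 0.23), P2ry13, Cxcr2 (369 against 9.39 CPM, log2 5.52 ± 0.18) and P2ry2. Ffar4, a receptor of long-chain fatty acids, had 0 CPM in neutrophil-like and 72.1 CPM in dendritic-cell-like barcodes.

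A list of 27 genes held ligands of the 9 receptors and enzymes that make or remove them or related mediators, such as leukotriene C4. Of these genes 21 were tested, with 9 higher and 4 lower than in monocyte/macrophage-like barcodes and 13 higher and 3 lower than in T-cell-like barcodes. The median log2 difference of these genes was 0.13 in the first and 2.51 in the second comparison, beside -0.14 and -0.0134 over all genes tested. Of all genes tested, 29.5% were higher and 36.5% lower in the first, and 31.9% and 32.8% in the second. The genes named next were all called by edgeR. Alox5, which starts leukotriene synthesis, was at 44.9 against 10.7 CPM (log2 2.27 ± 0.18), and Cyp4f18, which inactivates leukotriene B4, at 419 against 70.5 CPM (log2 2.76 ± 0.14), neutrophil-like against monocyte/macrophage-like. Ccl5 was lower, at 130 against 649 CPM (log2 -2.10 ± 0.41). Cxcl12, the ligand of Cxcr4, had 47.3 CPM in epithelial-like and 0.125 CPM in neutrophil-like barcodes. Of 40 signalling genes, 13 were higher and 11 lower than in the monocyte/macrophage-like class, and 22 and 10 against T-cell-like barcodes (median log2 0.0298 and 0.62). The shares over all genes given above apply to these counts as well. Rgs3, a brake on G-protein signalling, was at 245 against 19.98 CPM (log2 3.81 ± 0.13), and the receptor kinase Grk3 at 2.39 against 29.1 CPM (log2 -3.36 ± 0.34). The G-protein subunit Gnb4, at 0.161 CPM in the neutrophil-like class, was lower than in each of the other 6 classes.

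Within the neutrophil-like class, 3 states were set by genes that are no members: Retnlg, which encodes resistin-like gamma and is abundant in blood neutrophils, Cxcl3, a chemokine of activated ones, and Siglecf, which marks a neutrophil state known from tumours. A barcode thinned to 600 UMIs was placed in a state if it held a UMI of exactly 1 of these. This gave 342, 348 and 407 barcodes, with 4144 in none of the 3. Replicate 2 supplied only 54 of the Cxcl3 barcodes. All UMIs of these barcodes were then summed per library. The neutrophil markers made up 194538 to 202836 CPM in the Retnlg state, 49918 to 77566 CPM in the Cxcl3 state and 36434 to 49071 CPM in the Siglecf state. Retnlg is itself among these markers, so part of this contrast was set by the choice of barcodes. The 5 markers of eosinophils, which also carry Siglecf, were all at 0 in the Siglecf state. Dendritic cell markers summed to 2057 to 2606 CPM in the Siglecf state and 536 to 875 CPM in the others. Of the 10 listed, 4 had UMIs in the Siglecf state, Ccr7, Fscn1, H2-DMb2 and Cst3, and Fscn1 had none in the other states. Flt3, Zbtb46, Xcr1 and Mgl2 were at 0 in all 3 states. Macrophage markers summed to 661 to 992 CPM over the 3 states. The median mitochondrial share was 0.727% in the Siglecf, 0.457% in the Retnlg and 0.478% in the Cxcl3 state. The part of these values in the results below was not tested.

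The receptors for formyl peptides, platelet-activating factor and beta-hydroxybutyrate fell in the Siglecf state. Of the 8 receptors tested, 6 were called lower and 0 higher than in the Retnlg state, where 30% of 2393 genes were called lower and 26.5% higher. Against the Cxcl3 state 5 were lower and 0 higher (25.5% and 27.9% of genes). Both contrasts share the Siglecf sums. Fpr1 had 103, 86.0 and 106 CPM in the Retnlg state, 121, 135 and 108 CPM in the Cxcl3 state and 12.8, 8.75 and 14.1 CPM in the Siglecf state. Every Siglecf library lay below every other one, with log2 differences of -3.65 ± 0.49 (SE) (edgeR adjusted p = 2.31e-07) from Retnlg and -3.56 ± 0.49 (SE) (edgeR adjusted p = 3.65e-07) from Cxcl3. Fpr2 had 257, 258 and 183 CPM, 214, 135 and 103 CPM and 103, 105 and 84.7 CPM in the same order of states. It fell from Retnlg to Siglecf (log2 -1.97 ± 0.28 (SE), edgeR adjusted p = 7.26e-07). Its lower level than in the Cxcl3 state (log2 -1.04 ± 0.31 (SE), edgeR adjusted p = 0.00584), where the libraries overlapped, was not called in 6 of 13 alternatives. These included leaving out replicate 1 (adjusted p = 0.14) and sums of the thinned UMIs (adjusted p = 0.0894).

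Ptafr stood at 326, 344 and 348 CPM in the Retnlg, 704, 437 and 567 CPM in the Cxcl3 and 103, 158 and 108 CPM in the Siglecf state. The Siglecf libraries were lowest without overlap, by -2.23 ± 0.26 (SE) (edgeR adjusted p = 1.39e-08) and -2.68 ± 0.25 (SE) (edgeR adjusted p = 1.44e-10) on the log2 scale. Ltb4r1, at 103, 97.5 and 142 CPM in the Retnlg, 43.98, 101 and 82.5 CPM in the Cxcl3 and 64.2, 35.0 and 108 CPM in the Siglecf state, was lower in the Siglecf than in the Retnlg state (log2 -1.44 ± 0.34 (SE), edgeR adjusted p = 7.60e-04), with overlapping levels. Its difference between Siglecf and Cxcl3 was not called (log2 -0.35 ± 0.39 (SE), edgeR adjusted p = 0.474). S1pr4 had 8 UMIs in the Retnlg, 0 in the Cxcl3 and 3 in the Siglecf state and did not pass the filter; with a limit of 3 UMIs over the Cxcl3 state, its level in the Retnlg state was at least 2.52-fold higher.

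Hcar2 went from its highest level in the Cxcl3 state to its lowest in the Siglecf state. Its libraries stood at 1210.2, 940.2 and 1257 CPM in the Retnlg state, 2215, 2625 and 2402 CPM in the Cxcl3 state and 179.7, 394 and 165 CPM in the Siglecf state, and no 2 states overlapped. The fall from Cxcl3 to Siglecf was -3.77 ± 0.24 (SE) on the log2 scale and that from Retnlg to Siglecf -3.02 ± 0.25 (SE). That Hcar2 goes with Cxcl3 was known from earlier results of these data, so these values are given as a description. Gpr84 varied between libraries, at 103, 74.5 and 23.6 CPM in the Retnlg, 55.0, 33.6 and 108 CPM in the Cxcl3 and 89.9, 131 and 159.9 CPM in the Siglecf state. It was called in none of the 3 contrasts, with a log2 difference of 0.30 ± 0.40 (SE) between Siglecf and Retnlg (edgeR adjusted p = 0.536).

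Cxcr4 was not called between any 2 of the states. It had 275, 212 and 165 CPM in the Retnlg, 390.3, 437 and 191 CPM in the Cxcl3 and 526, 385 and 339 CPM in the Siglecf state, and the log2 difference between Siglecf and Retnlg was 0.20 ± 0.22 (SE) (edgeR adjusted p = 0.452). Ccrl2 had 2566, 2001 and 1959.9 CPM in the Retnlg, 4255, 3668 and 3165 CPM in the Cxcl3 and 2144, 2897 and 2225 CPM in the Siglecf state. It was lower in the Siglecf than in the Cxcl3 state, without overlap of the libraries (log2 -1.03 ± 0.18 (SE), edgeR adjusted p = 1.55e-05). Its call as lower than in the Retnlg state (log2 -0.59 ± 0.18 (SE), edgeR adjusted p = 0.00567) went against its CPM, which were on average higher in the Siglecf state, and was lost without replicate 1 (adjusted p = 0.138) or replicate 3 (adjusted p = 0.0953).

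CPM and the fitted differences were scaled differently. With TMM, which centres the bulk of genes, the median of all genes was 0.014, -0.047 and 0.087 for Cxcl3 minus Retnlg, Siglecf minus Retnlg and Siglecf minus Cxcl3. With library totals, in which S100a8, S100a9 and the other markers weigh on the Retnlg state, it was 0.35, 0.82 and 0.62. For Siglecf minus Retnlg the calls over all genes moved from 635 higher and 717 lower to 1256 higher and 321 lower, for Siglecf minus Cxcl3 from 667 and 611 to 1100 and 399, and for Cxcl3 minus Retnlg from 150 and 305 to 426 and 187. A change of scaling moves all genes of a contrast by about the same amount. Differences relative to the median of all genes are therefore nearly equal under both by construction, and their likeness tests nothing. For Siglecf minus Retnlg, Fpr1 stood on that scale at -3.60 and -3.62, and Hcar2 at -2.97 and -2.97. Ccrl2 stood at -0.55 and -0.54, and Cxcr4 at 0.25 and 0.25. Without that centring, under library totals, Fpr1, Fpr2, Ptafr and Hcar2 were still called lower in the Siglecf than in the Retnlg state, Ltb4r1 was not called (adjusted p = 0.162), Ccrl2 turned to 0.27 (adjusted p = 0.15), and Gpr84 (1.16, adjusted p = 0.0123) and Cxcr4 (1.06, adjusted p = 1.62e-04) were called higher, all by edgeR. For Siglecf minus Cxcl3 under library totals, Fpr1, Ptafr, Hcar2 and Ccrl2 were called lower by edgeR, Fpr2 was not called (adjusted p = 0.154), and Gpr84 and Cxcr4 stood at 0.93 (adjusted p = 0.0431) and 0.50 (adjusted p = 0.0498).

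**Figure D2:**
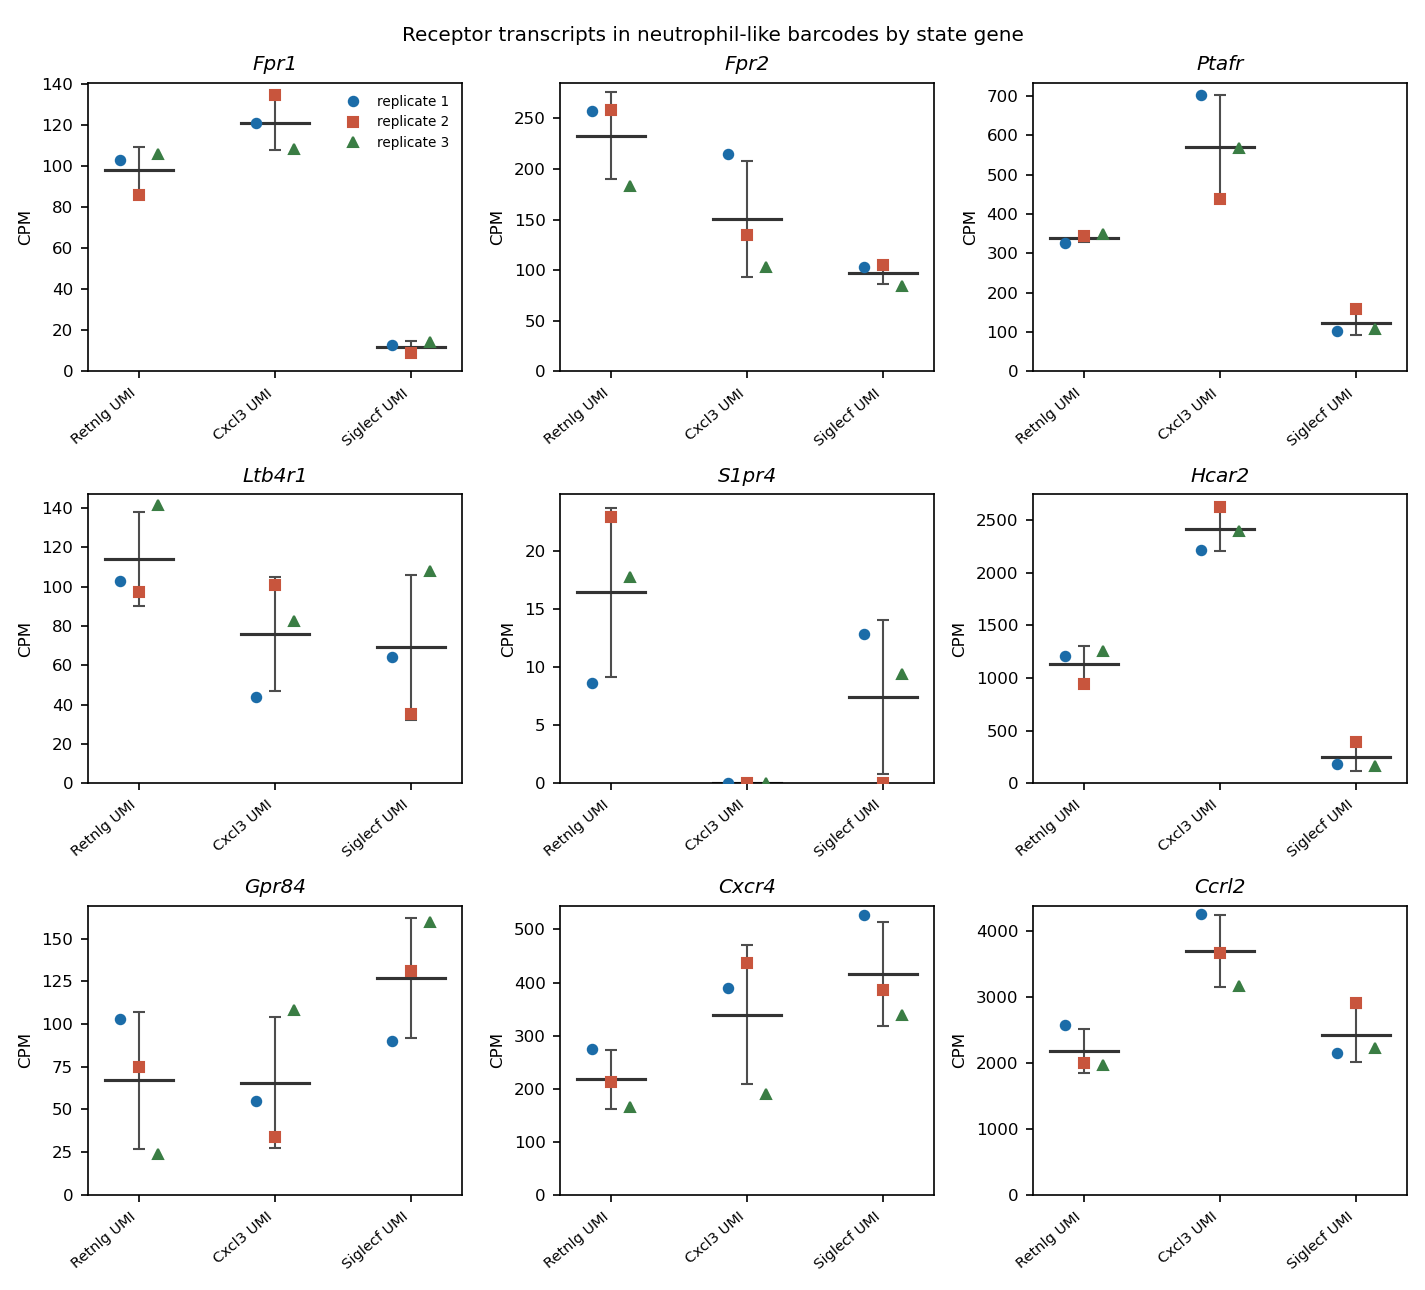
CPM of each receptor in neutrophil-like barcodes with a UMI of Retnlg, Cxcl3 or Siglecf, one panel per gene with its own vertical axis from 0; point shapes are the 3 libraries, lines the means and bars the SD. Fpr1, Ptafr and Hcar2 are lowest in the Siglecf state in every library, and Hcar2 is highest in the Cxcl3 state (mean 2414 CPM).

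Between the Cxcl3 and Retnlg states, 1 of the 8 receptors was called higher and 2 lower, where 6.27% and 12.7% of all genes were. The higher one was Hcar2 (log2 0.75 ± 0.20), a call lost in 2 of 13 alternatives. Fpr2 was lower in the Cxcl3 state (log2 -0.93 ± 0.26 (SE), edgeR adjusted p = 0.0105), as was Ltb4r1 (log2 -1.09 ± 0.35 (SE), edgeR adjusted p = 0.0266), and the levels of both overlapped between the states. The call of Fpr2 was lost in 6 of 13 alternatives and that of Ltb4r1 in 7 of the 11 that tested it. Among these, each of the 2 calls was lost without replicate 3, Fpr2 also without replicate 2 (adjusted p = 0.139 and 0.0606), and Ltb4r1 also without replicate 1 (adjusted p = 0.229 and 0.191) and without the library block (adjusted p = 0.0527). Fpr1 (log2 -0.09 ± 0.31), Ptafr (0.45 ± 0.20), Gpr84 (-0.0851 ± 0.45), Cxcr4 (0.22 ± 0.23) and Ccrl2 (0.44 ± 0.18) were not called. Each of these was called in at least 1 alternative. Ccrl2 was higher in 4 of 13: library totals (log2 0.78, edgeR adjusted p = 6.75e-04), DESeq2 size factors in edgeR (0.51, adjusted p = 0.0396), subclusters in place of the UMI-based states (0.99, adjusted p = 1.98e-15) and thinned sums (0.51, adjusted p = 0.0458). Ptafr was higher in 3 of 13: library totals (log2 0.79, edgeR adjusted p = 0.00481), without replicate 2 (0.60, adjusted p = 0.0442) and subclusters (1.23, adjusted p = 1.06e-13). Fpr1 (log2 -0.68, edgeR adjusted p = 0.00226), Gpr84 (-1.21, adjusted p = 3.16e-08) and Cxcr4 (-0.48, adjusted p = 4.80e-04) were lower with subclusters, the last with its direction turned. Subclusters are cut from the same cells by their expression, so their p-values are given as a description. Hcar2 and Ccrl2 had no overlap in CPM between the UMI-based Cxcl3 and Retnlg states, and neither had Ptafr.

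Other chemoattractant receptors were mostly lower in the Siglecf state as well. Only 7 of the 45 passed the filter here, and 5 of them were lower and 1 higher in the Siglecf than in the Retnlg state (median log2 -1.65, against -0.0472 over all genes). Of all genes tested, 30% were lower and 26.5% higher. C5ar1 was at 245 against 594 CPM (log2 -2.06 ± 0.21), the chemokine receptors Ccr1 at 313 against 623 CPM (log2 -1.71 ± 0.20) and Cxcr2 at 304 against 569.8 CPM (log2 -1.65 ± 0.22), and the nucleotide receptor P2ry2 at 13.9 against 63.0 CPM (log2 -2.59 ± 0.55), Siglecf against Retnlg. The higher one, chosen here after its value was seen, was the short-chain fatty acid receptor Ffar2, at 88.0 against 21.4 CPM (log2 1.22 ± 0.52, edgeR adjusted p = 0.0464). Cxcr2 was lower also in the Cxcl3 than in the Retnlg state, at 205 against 569.8 CPM (log2 -1.68 ± 0.23).

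Genes of lipid mediator synthesis changed in both directions in the Siglecf state. Of 11 ligand and enzyme genes tested, 5 were lower and 1 higher than in the Retnlg state by edgeR (median log2 -0.39), where 30% of all genes were lower and 26.5% higher (median -0.047). Ltc4s, which makes leukotriene C4, was the higher one, at 666 against 8.71 CPM (log2 5.35 ± 0.38). By fold, Ltc4s is also among the leading genes of the cluster led by Siglecf below, so its value is given as a description. Alox5ap, which feeds arachidonic acid to Alox5, was at 240.1 against 1605 CPM (log2 -3.44 ± 0.23). Anxa1, a ligand of Fpr2, was at 92.5 against 521 CPM (log2 -3.25 ± 0.25), and Pla2g7, which degrades platelet-activating factor, at 49.6 against 248 CPM (log2 -2.99 ± 0.31). Of 20 signalling genes, 3 were higher and 8 lower than in the Retnlg state, and 8 and 2 against the Cxcl3 state (median log2 -0.21 and 0.41). Against the Cxcl3 state 27.9% of all genes were higher and 25.5% lower (median 0.087). Rgs10, a regulator of G-protein signalling, was at 497 against 38.2 CPM (log2 2.95 ± 0.35), Siglecf against Retnlg, and Rgs3 at 386 against 76.1 CPM (log2 2.02 ± 0.29), Siglecf against Cxcl3.

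The clusters of the neutrophil-like class showed finer patterns, given as a description since clusters are cut from the same cells, and named by the genes with the highest fold in them. In the cluster led by Siglecf, Ambp and Prss2 (1247 barcodes), 0 UMIs of Fpr1 were counted, which allows a level of up to 2.76 CPM, against 245, 145 and 165 CPM in the cluster led by Retnlg and Wfdc21 (693 barcodes). Ptafr stood at 18.6, 32.4 and 43.0 CPM in the Siglecf cluster and at 729, 654 and 631 CPM in the cluster led by Cxcl3 (1637 barcodes). For Hcar2, itself a leading gene of the Cxcl3 cluster by fold, these values were 62.0, 46.8 and 51.2 CPM and 2725, 2429.8 and 2497 CPM, a ratio of means of 47.8. Of the 9 receptors, 7 had their lowest mean in the Siglecf cluster, all but Ltb4r1 and S1pr4. Fpr2 and Ltb4r1 were highest in the Retnlg cluster, at 306 ± 78.4 CPM and 218 ± 17.9 CPM.

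A cluster led by Cxcl10, Ifit3b and Ifit1, genes of the interferon response, held 370 barcodes and had the highest means of Ccrl2, Cxcr4 and Gpr84. Ccrl2 stood there at 7000.4, 5111 and 5005 CPM, each above the value of the same library in every other neutrophil-like cluster. Cxcr4 stood at 783, 888 and 782 CPM, followed by the cluster led by Gm12589 and Clec5a at 645, 727 and 695 CPM, and was lowest in the Siglecf cluster at 242, 259 and 246 CPM. Gpr84 was high in this cluster in 1 library (433, 206 and 188 CPM) and more evenly so in the cluster led by Mmp9 and Igfbp6 (199.6, 254 and 269.9 CPM). Gpr84 was itself among the leading genes of the latter cluster by fold. In the Cxcl3 cluster Gpr84 was at 70.5 ± 6.93 CPM. With states set by subclusters, Gpr84 and Cxcr4 were lower in the Siglecf than in the Retnlg state, at log2 -1.36 (edgeR adjusted p = 7.76e-11) and -0.99 (edgeR adjusted p = 1.54e-11), where the split by single UMIs had called neither. Cxcr4 was then also lower in the Cxcl3 than in the Retnlg state (log2 -0.48, edgeR adjusted p = 4.80e-04). These p-values are a description as well, since subclusters are cut from the same cells by their expression. The direction of Gpr84 and Cxcr4 between the Siglecf and Retnlg states thus differed with how the states were drawn.

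**Figure D3:**
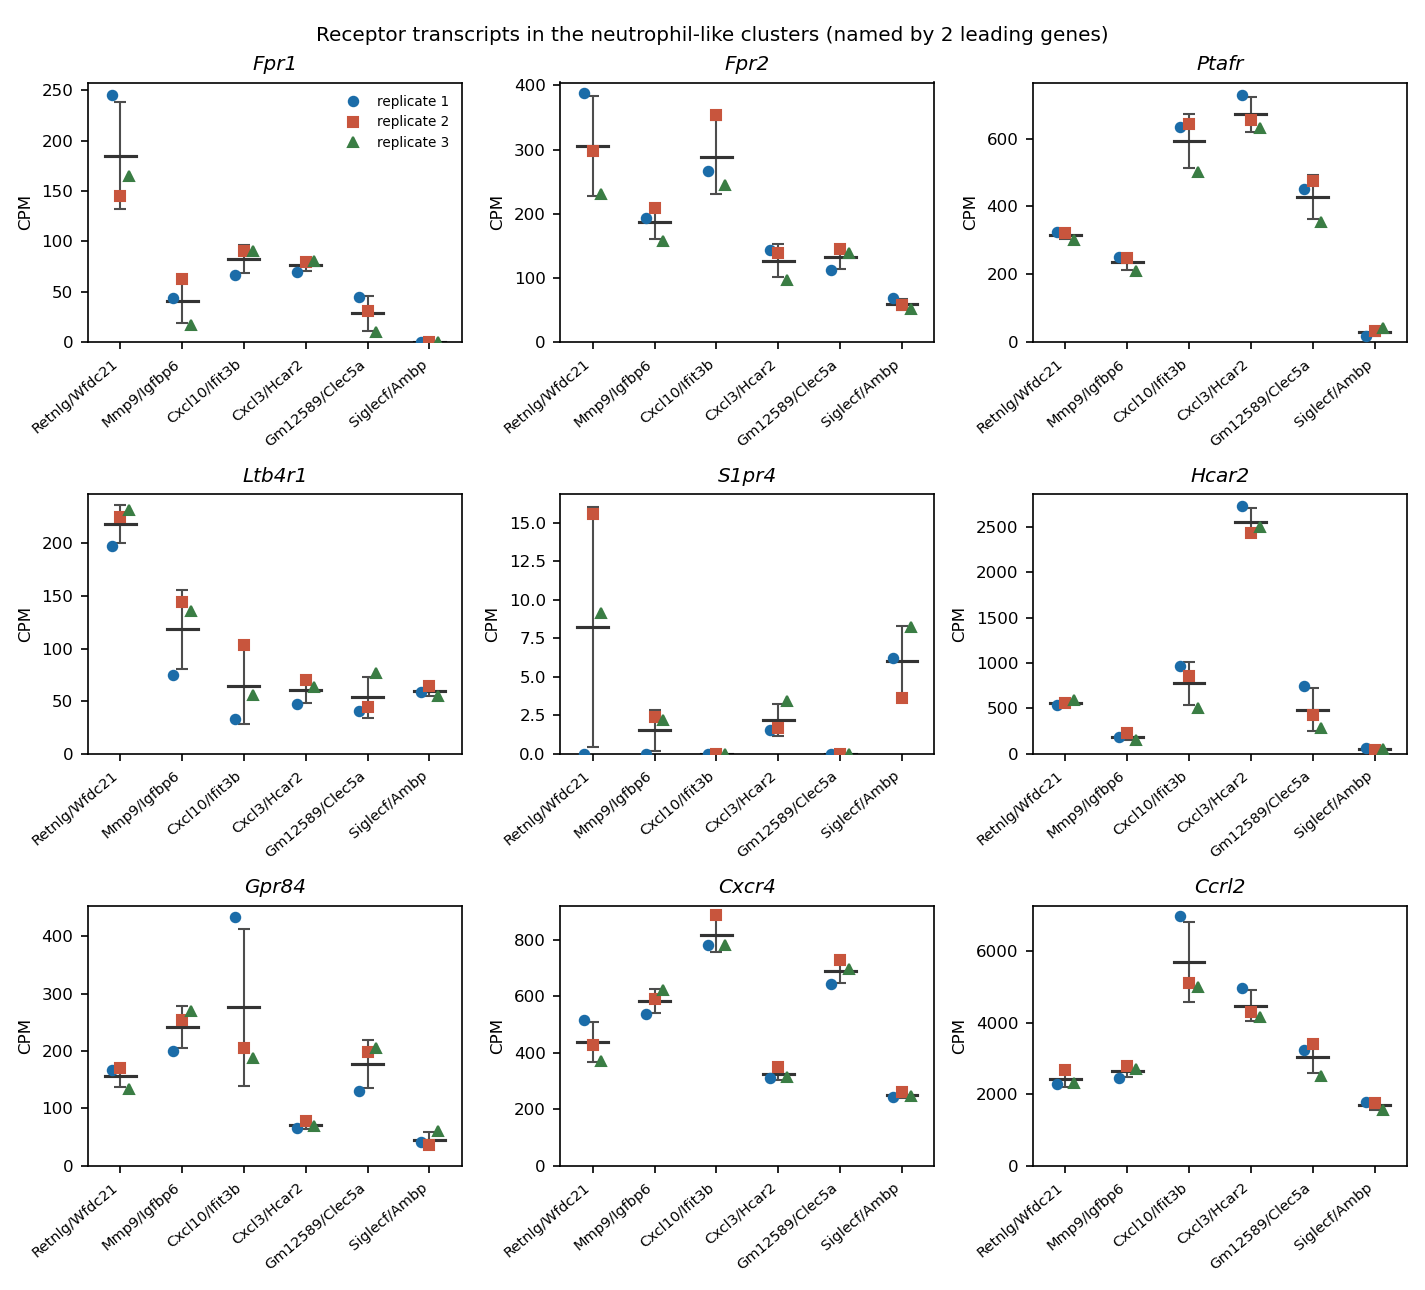
CPM of each receptor in the 6 neutrophil-like clusters, named on the horizontal axis by their 2 leading genes; point shapes are the 3 libraries, lines the means and bars the SD, and each vertical axis starts at 0. Fpr1 is at 0 CPM in all 3 libraries of the Siglecf/Ambp cluster, and Cxcr4 and Ccrl2 are highest in the Cxcl10/Ifit3b cluster. Hcar2 is highest in the Cxcl3/Hcar2 cluster, which was named in part by its high fold of Hcar2, so this is no separate result.

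The title of the series names Icam1, an adhesion molecule, on neutrophils, so barcodes thinned to 600 UMIs were split by a UMI of Icam1. In the 3 libraries 96, 136 and 168 neutrophil-like barcodes had one and 1248, 1666 and 2001 did not. Of the 8 receptors tested, 2 were called higher with Icam1 and 0 lower, where 0.374% of 4009 genes were called higher and 0.274% lower. Gpr84 stood at 208, 379.9 and 228 CPM with Icam1 and at 104, 131 and 126 CPM without, with no overlap, and the log2 difference was 1.10 ± 0.22 (SE) (edgeR adjusted p = 0.0125). Ccrl2 stood at 4288, 4951 and 3879 CPM with and 3583, 3084 and 2806 CPM without Icam1 (log2 0.41 ± 0.0895 (SE), edgeR adjusted p = 0.0278), higher in 3 of 3 libraries. Both calls were lost when replicate 1 (adjusted p = 0.247 for both) or replicate 2 (adjusted p = 0.281 for both) was left out, and that of Ccrl2 without replicate 3 (adjusted p = 0.105). Without the library block, neither was called (adjusted p = 0.0776 and 0.636). In all, the call of Gpr84 was lost in 4 and that of Ccrl2 in 6 of 12 alternatives.

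The other receptors did not pass the test by Icam1 at 600 UMIs. Hcar2 was lower with Icam1 in 3 of 3 libraries, at 1267, 637 and 635 CPM against 1388, 987 and 925 CPM (log2 -0.49 ± 0.12 (SE), edgeR adjusted p = 0.101), and the groups overlapped. It was called lower in 2 of 12 alternatives, without the filter on low counts (log2 -0.67, edgeR adjusted p = 5.14e-04) and with all UMIs (-0.41, adjusted p = 0.0285). Cxcr4 was at 571 ± 116 against 419 ± 41.5 CPM (log2 0.38 ± 0.16 (SE), edgeR adjusted p = 0.528), higher in 2 of 3 libraries, and was called higher in 1 of 12 alternatives, with barcodes thinned to 900 UMIs (log2 0.50, edgeR adjusted p = 0.036). The log2 differences of Fpr1, Fpr2, Ltb4r1 and Ptafr lay between -0.0722 and 0.16, with standard errors of 0.16 to 0.38. S1pr4 had 0 UMIs with and 5 without Icam1 and was not tested. Neutrophil markers summed to 47312 to 61215 CPM with Icam1 and 70500.1 to 78593 CPM without, and their part in these differences was not tested. Of the listed genes, Saa3, a ligand of Fpr2, was called higher with Icam1 (975 against 409 CPM, log2 1.21 ± 0.18, higher in 2 of 3 libraries, edgeR adjusted p = 9.46e-04) and Alox5ap lower (338 against 553 CPM, log2 -0.81 ± 0.17, edgeR adjusted p = 0.0228). Of 13 other receptors and 28 signalling genes tested, 0 were called by edgeR, with 0 and 2 at an unadjusted p under 0.05. Over all genes tested, 0.374% were called higher and 0.274% lower.

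**Figure D4:**
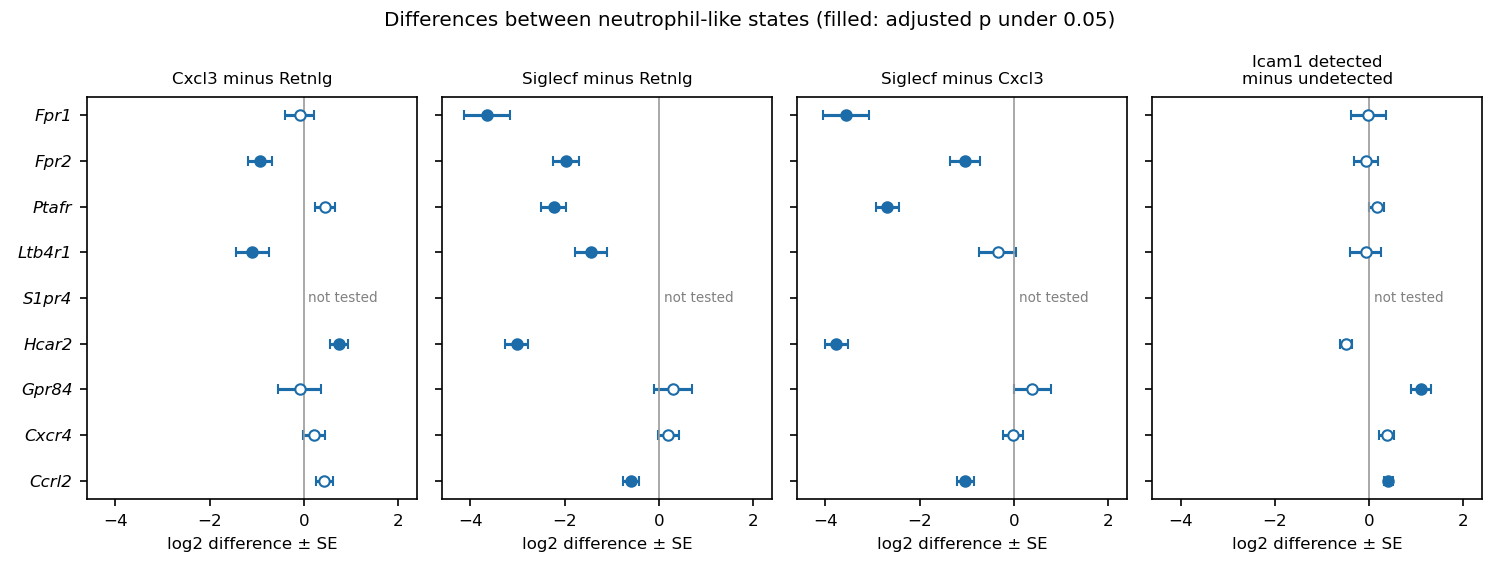
Log2 differences with SE of the 8 tested receptors for the 3 contrasts of neutrophil-like states and for barcodes with against without an Icam1 UMI; filled points passed the edgeR test at an adjusted p under 0.05. Fpr1, Ptafr and Hcar2 lie furthest to the left in both Siglecf panels, and Gpr84 (log2 1.10) furthest to the right in the Icam1 panel.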

How the data were processed

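The authors deposited, for each of the 3 libraries, a matrix of UMI counts per gene and barcode, as whole numbers with no normalization. The submitters' processing notes name the mm10 build, Seurat and Cell Ranger, and the matrix headers give software version 3.0.0. No barcode held under 500 UMIs.

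Removed were 22 barcodes in which fewer than 200 genes were found and 107 in which mitochondrial UMIs exceeded 10%; some met both. Scrublet marked only 2 barcodes and so has not worked here; they were kept, and an alternative leaves out the 560 highest scores. After log transformation of values scaled to a total of 10000, 1971 of 2000 variable genes were used, without the receptors, the listed genes and Icam1. Leiden clusters (scanpy 1.11.5, igraph 0.11.9) came from 15 neighbours in 30 components, at resolution 1. A name needed 3 markers of a class, each detected in 10% of a cluster and 2-fold higher there than elsewhere after adding 10 CPM. A cluster whose median doublet score exceeded 0.15 was not named, and a class with fewer than 20 barcodes in any library was not tested. UMIs were summed per library and group and tested with edgeR 4.0.16 (R 4.3.3), using TMM, filterByExpr, the quasi-likelihood fit, library as a block and Benjamini-Hochberg adjustment. The block pairs sums of the same library. The SE of an edgeR log2 difference was derived from the test, as the absolute difference divided by the square root of F. DESeq2 1.42.0 was an alternative. The fits were tested on simulated data. Intervals cover counting error only, at the 95% level. The thinning depth of 600 UMIs is the 25th percentile of neutrophil-like depths, rounded down.

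Named were the 9 receptors in each comparison, from each list up to 4 called genes with the largest log2 difference or, where 0 were called, the 2 of lowest p, and the 3 genes most like each receptor among those with a mean of at least 20 CPM. Not every gene so named is described. The members and lists were chosen with earlier results of these data known.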

Additional observations from a re-analysis of the deposited data

How the results depend on the processing

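The counts of receptors called between classes moved by at most 1 under every alternative tried, and each of the 8 receptors kept its call as higher against every class. In the Siglecf state, Fpr1, Ptafr and Hcar2 stayed lower than in both other states, and Fpr2 lower than in the Retnlg state, under every alternative that could be fitted. The counts that moved were those of smaller differences, and the cause was not tested. By Icam1, 2 receptors were called, but 0 without the replicate block, 0 under the stricter quality filter, and 0 to 1 when a replicate was left out. For Cxcl3 minus Retnlg, 3 were called, but 1 with DESeq2, 0 at a thinning depth of 900 UMIs, 0 under the stricter quality filter, 8 with subclusters, and 1 to 3 without a replicate. For Siglecf minus Cxcl3, 5 were called, but 3 with thinned sums. The block changed no count of receptors called between classes or states by over 1.5 times.

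Ltb4r1 in Cxcl3 minus Retnlg and S1pr4 against epithelial-like barcodes were the only receptor calls there that were lost without it. Log2 differences changed direction in 37 cases, all but that of Ccrl2 among differences that had not been called: under classes set by marker UMIs, S1pr4 neutrophil-like minus dendritic-cell-like to 0.56. Under library totals, S1pr4 neutrophil-like minus monocyte/macrophage-like to -0.00882, Fpr1 Icam1 to 0.0539, Fpr2 Icam1 to 0.000273, Fpr1 Cxcl3 minus Retnlg to 0.26, Gpr84 Cxcl3 minus Retnlg to 0.24, Ltb4r1 Siglecf minus Cxcl3 to 0.19, Cxcr4 Siglecf minus Cxcl3 to 0.50, Ccrl2 Siglecf minus Retnlg to 0.27. Under DESeq2 size factors, Fpr1 Icam1 to 0.0184. Under DESeq2, Fpr1 Icam1 to 0.0401, Ltb4r1 Icam1 to 0.0568, Fpr1 Cxcl3 minus Retnlg to 0.0138. Under the highest doublet scores left out, Fpr1 Icam1 to 0.00716. Under all UMIs, Fpr2 Icam1 to 0.0805. Under a thinning depth of 900 UMIs, Fpr2 Icam1 to 0.31, Gpr84 Cxcl3 minus Retnlg to 0.62, Gpr84 Siglecf minus Cxcl3 to -0.13. Under no filter on low counts, Ptafr Icam1 to -0.0205, Cxcr4 Siglecf minus Cxcl3 to 0.0548. Under the stricter quality filter, Fpr1 Cxcl3 minus Retnlg to 0.33, Gpr84 Cxcl3 minus Retnlg to 0.0925, Gpr84 Siglecf minus Cxcl3 to -0.0923, Cxcr4 Siglecf minus Retnlg to -0.22. Under subclusters, Cxcr4 Cxcl3 minus Retnlg to -0.48, Gpr84 Siglecf minus Cxcl3 to -0.15, Gpr84 Siglecf minus Retnlg to -1.36, Cxcr4 Siglecf minus Retnlg to -0.99. Under thinned sums, Cxcr4 Siglecf minus Cxcl3 to 0.20. When a replicate was left out, the ranges were Fpr1 Icam1 -0.18 to 0.18, Fpr2 Icam1 -0.29 to 0.26, Ltb4r1 Icam1 -0.45 to 0.28, Fpr1 Cxcl3 minus Retnlg -0.17 to 0.0951, Gpr84 Cxcl3 minus Retnlg -1.12 to 0.52, Gpr84 Siglecf minus Retnlg -0.32 to 0.81. By Icam1, 26 genes were called in all. The totals were 8 without the block, 62 without the filter, 87 with all UMIs and 85 at 900 UMIs. They were 6 under the stricter filter and 9 to 34 without a replicate. How many of the 26 were among these was not counted. Between states, subclusters called 1906, 2656 and 3488 genes where TMM with the block called 455, 1352 and 1278, DESeq2 231, 922 and 831, thinned sums 294, 748 and 727, the stricter filter 68, 653 and 601, and leaving out replicate 3 gave 201, 806 and 754. Without replicate 2, which held most plasmacytoid-like barcodes, 2780 in place of 4343 genes were called against that class. The stricter filter and thinned sums tested 1389 and 1277 genes between states, in place of 2393. Depth limited S1pr4 most: with 23 UMIs in neutrophil-like barcodes, it did not pass the filter on low counts and was not tested between states or by Icam1.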
